A study of Homo sapiens with 6 samples.

Results

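The origin licensing genes examined here were MCM2, MCM3, MCM4, MCM5, MCM6 and MCM7, ORC1, CDC6 and CDT1, and GMNN, which are 10 of the 47516 RefSeq genes with a known start. They were chosen by name, and a peak of open chromatin was counted to a gene when its midpoint lay in the RefSeq gene body or within 1 kb of it. Between 20 and 23 peaks per sample met this rule, out of 64511 to 84510. A peak whose midpoint lay within 1 kb of a gene start was called a start peak and every other peak a body peak.

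Licensing is the step in which an origin of replication is prepared for use before S phase. The origin recognition complex, of which ORC1 is the largest subunit, recruits the ATPase CDC6 and the chaperone CDT1, and together they load the MCM2-7 complex, the core of the replicative helicase, onto DNA as an inactive double ring. Geminin, the product of GMNN, binds CDT1 after S phase has begun and thereby prevents a second round of loading, and most of these genes are known targets of E2F transcription factors in proliferating cells.

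The cells were RKO, an established human colon cancer line from ATCC that was kept at 5% O2 and 5% CO2. Aphidicolin (APH), an inhibitor of the replicative DNA polymerases, was given at 0.2 µM for 16 h to 3 samples, and 3 samples received DMSO, its solvent. Accessibility was measured by ATAC-seq, in which the Tn5 transposase inserts adapters into open chromatin, on cells that had been frozen before the assay. Bulk samples of cells were measured, so a change in the share of cells in a cell cycle phase and a change within each cell cannot be told apart.

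Every deposited peak carries a value, which is the coverage by fragments extended to 200 bp, averaged over the peak. The values carry no fractional scaling to library size, and as read numbers are unknown, no interval for counting error is attached to them and a depth difference would enter each one. The mean value over all peaks was 78.3, 85.2 and 83.1 in DMSO and 69.4, 73.0 and 71.0 in APH, so that all 3 APH samples lay below all 3 DMSO samples before any gene was considered. Each mean was taken over the sample's own peaks, so the sets differed. They numbered 65865, 77194 and 64511 in DMSO and 79807, 84510 and 70121 in APH. At the 50150 merged places that all 6 samples shared, the median log2 difference, APH minus DMSO, was -0.06. How far the number of peaks bears on the means was not tested. Start peaks at EPCAM, an epithelial surface protein, and CDX2, an intestinal transcription factor, were found in all 6 samples and none was found for the leukocyte genes PTPRC, CD3E and CD79A. Of the other markers of epithelium and intestine, KRT18 had a start peak in 5 samples and KRT20 in 2, and CDH1, KRT8, CDX1, VIL1 and CDH17 had none. COL1A1, a fibroblast collagen gene, had a start peak in all 6 samples, PDGFRB in 1 and DCN in none.

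The sequences of 6 promoters are shown because they hold, in different arrangements, the letters recognised by factors known to act on cell cycle genes, and because the start peaks described below lie on them. They are from RefSeq for GRCh38.p14, written 5′ to 3′ on the strand of the gene and ending at the base before the gene start. Capitals mark matches on either strand, and neighbouring or overlapping matches run together. The letters searched for E2F were TTCCCGC and, as variants of that core, TTGGCGC in the second form, TTCGCGC in the next form and TTGCCGC in the last, those for NF-Y were CCAAT and those for SP/KLF factors were GGGCGG. MCM6 (chr2:135876444-135876693, minus strand), MCM3 (chr6:52284743-52284992, minus strand), MCM7 at its first start (chr7:100101398-100101647, minus strand), CDC6 (chr17:40287629-40287878, plus strand) and CDT1 (chr16:88803539-88803788, plus strand) are given with 250 bases each, and ORC1 (chr1:52404424-52404601, minus strand) with the 178 bases up to the start of the divergent gene PRPF38A.
MCM6: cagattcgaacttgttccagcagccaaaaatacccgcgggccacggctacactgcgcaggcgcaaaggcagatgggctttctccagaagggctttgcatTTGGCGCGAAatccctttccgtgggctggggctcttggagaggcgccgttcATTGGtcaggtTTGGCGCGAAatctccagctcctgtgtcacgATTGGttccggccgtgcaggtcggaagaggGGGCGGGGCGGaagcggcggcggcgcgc
MCM3: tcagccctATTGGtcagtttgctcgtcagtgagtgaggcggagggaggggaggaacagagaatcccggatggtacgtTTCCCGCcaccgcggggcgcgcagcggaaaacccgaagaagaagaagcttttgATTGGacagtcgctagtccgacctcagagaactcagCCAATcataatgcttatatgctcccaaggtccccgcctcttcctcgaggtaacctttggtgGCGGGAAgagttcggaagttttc
MCM7: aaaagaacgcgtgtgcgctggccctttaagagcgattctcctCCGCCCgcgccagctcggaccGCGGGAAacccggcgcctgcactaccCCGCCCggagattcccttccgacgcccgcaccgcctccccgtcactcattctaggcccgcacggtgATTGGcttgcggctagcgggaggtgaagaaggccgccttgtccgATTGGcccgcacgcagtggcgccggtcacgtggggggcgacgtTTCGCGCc
CDC6: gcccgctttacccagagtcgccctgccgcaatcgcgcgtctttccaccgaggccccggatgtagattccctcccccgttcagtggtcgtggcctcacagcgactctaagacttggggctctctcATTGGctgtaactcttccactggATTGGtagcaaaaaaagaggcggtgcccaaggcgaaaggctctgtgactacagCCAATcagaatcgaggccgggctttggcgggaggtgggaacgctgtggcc
CDT1: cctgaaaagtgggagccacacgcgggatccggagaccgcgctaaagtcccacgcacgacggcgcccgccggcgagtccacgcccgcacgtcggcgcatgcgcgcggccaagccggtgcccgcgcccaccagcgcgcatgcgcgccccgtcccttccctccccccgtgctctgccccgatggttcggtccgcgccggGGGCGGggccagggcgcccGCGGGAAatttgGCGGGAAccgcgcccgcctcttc
ORC1: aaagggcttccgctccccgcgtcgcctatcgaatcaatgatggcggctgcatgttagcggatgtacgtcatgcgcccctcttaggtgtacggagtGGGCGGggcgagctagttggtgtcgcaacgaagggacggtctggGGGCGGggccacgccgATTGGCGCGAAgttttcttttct

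MCM6 holds 4 E2F matches, at bases -151, -148, -89 and -86 counted back from the gene start, which form 2 pairs that overlap on opposite strands. In ORC1 the E2F letters at -22 and -19 overlap in the same way, and an NF-Y match on the minus strand runs into them. CDT1 holds E2F letters at -35 and -23 and SP/KLF letters at -54, while CDC6 holds 3 NF-Y matches and none of the searched E2F letters. Only exact words were searched, so E2F sites with other letters, in CDC6 or elsewhere, would not be counted. Over the 11 promoter windows of 8 of the genes (MCM4 and MCM5 had no entry), E2F letters were found in 7 windows of 6 genes, against 10.9% of all 35116 windows of the same length. NF-Y letters were in 8 windows, against 32% of all, and SP/KLF letters in 9, against 42.6%. The CHR letters TTTGAA, known from genes expressed late in the cell cycle, were in none of the 11, against 13.3% of all. These matches are a description of the letters in the windows and not of binding.

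All 10 genes had a start peak in every DMSO sample, and all but CDT1 had one in every APH sample. Across the genes the start peaks numbered 13 in each DMSO sample and 14, 13 and 13 in the APH samples. Their positions hardly moved between samples, and the peaks of MCM2, MCM5 and ORC1 were single in all 6. At MCM4 and MCM7 there were separate peaks on each side of a gap, and at MCM6 the region just downstream of the start was joined to the start peak in DMSO 1 and 3 and separate in DMSO 2 and all 3 APH samples. In every sample at least 1 start peak of MCM2, MCM4, MCM7 and ORC1 also lay within 1 kb of a start of TPRA1, a membrane protein gene, PRKDC, the catalytic subunit of DNA-dependent protein kinase, AP4M1, a subunit of an adaptor complex of vesicles, and PRPF38A, a splicing factor, in that order, so that the accessibility of these pairs of promoters cannot be told apart. At MCM4 this held for both peaks in DMSO, while in each APH sample the midpoint of the most downstream start peak lay further from PRKDC.

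**Figure D1:**
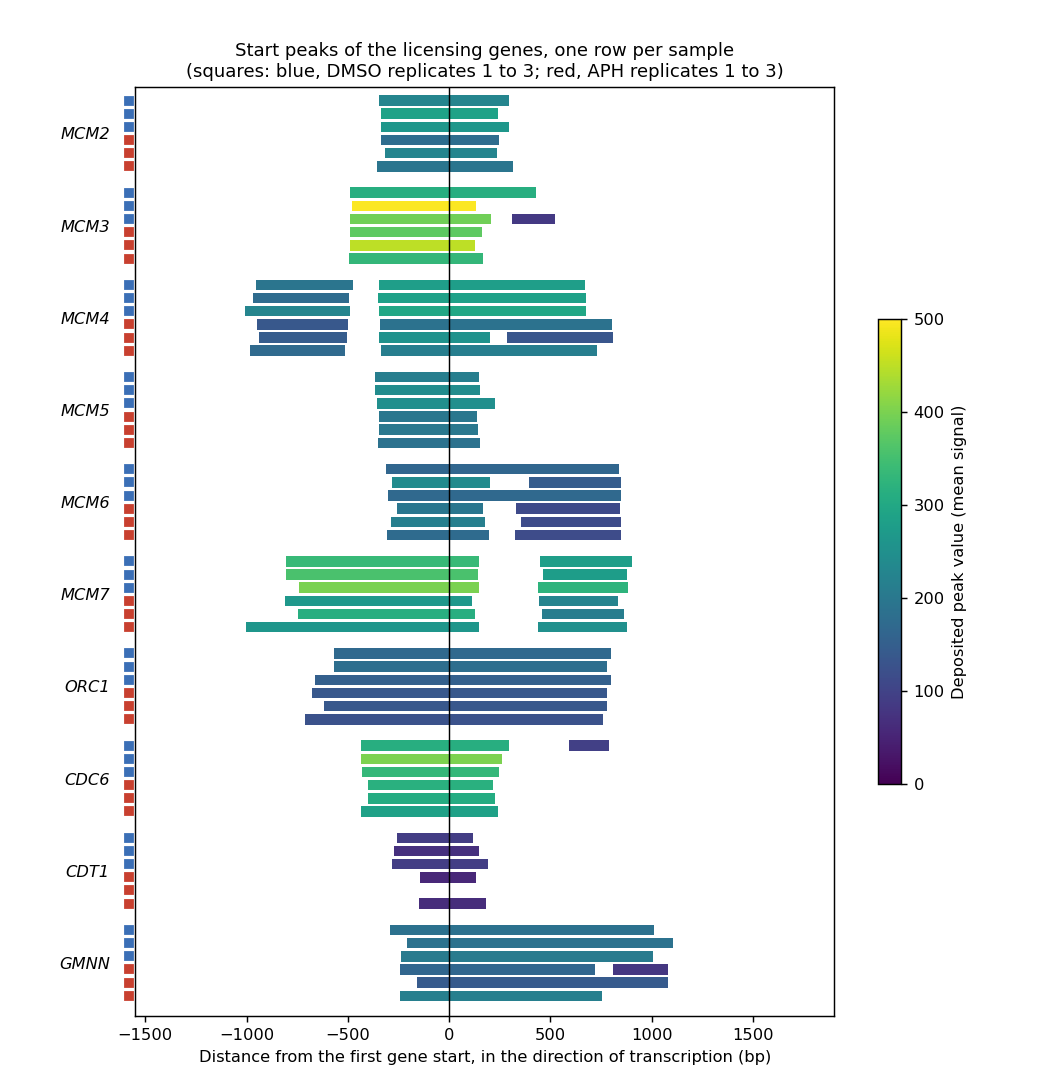
Start peaks of the 10 licensing genes in each of the 6 samples. The horizontal axis is the distance from the first gene start in bp, in the direction of transcription, each line of bars is a sample (blue squares, DMSO replicates 1 to 3 from the top; red squares, APH replicates 1 to 3), and the colour gives the deposited peak value. Peaks keep their place between samples, the peak of MCM6 is whole in 2 DMSO samples and split in the other 4 samples, and CDT1 has no peak in APH 2.

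The start value of a gene was the mean of the values of its start peaks, weighted by their length. MCM3 had the highest mean in DMSO (376.6 ± 104.9, SD, n = 3), followed by MCM7 (341.8 ± 29.2), CDC6 (334.4 ± 67.6), MCM2 (259.7 ± 29.7), MCM4 (258.3 ± 13.2), MCM5 (233.4 ± 18.6), GMNN (192.9 ± 10.9), MCM6 (175.4 ± 16.6), ORC1 (166.8 ± 14.2) and CDT1 (83.0 ± 11.7). The ranges of neighbours in this order overlapped except between MCM4 and MCM5, between MCM5 and GMNN and between ORC1 and CDT1, the last pair being far apart. Of the 15279 genes with a start peak in every sample, the median start value in DMSO was 148, with quartiles of 96.4 and 218. MCM3, MCM7 and CDC6 thus stood above 93.4% or more of these genes, and 9 of the 10 licensing genes stood above the median, while CDT1 would have stood at 19.0%.

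Among the helicase genes, MCM4 showed the largest relative difference between conditions. Its start value, which includes the peak on the side of PRKDC, was 252, 249 and 273 in DMSO and 174, 181 and 200 in APH, a fall of the mean by 28.5%. All APH samples lay below all DMSO samples by more than the spread within either group. MCM2 had start values of 228, 287 and 264 in DMSO and 176, 228 and 193 in APH, where the highest APH sample lay less than 1 unit under the lowest DMSO sample. MCM7 gave 318, 332 and 375 in DMSO and 254, 281 and 259 in APH, with no overlap. MCM5 gave 212, 241 and 247 against 199, 200 and 189, and MCM6 gave 163, 194 and 169 against 150, 163 and 143, also without overlap, although the nearest samples of MCM6 were less than 1 unit apart. MCM3 was the exception: its values of 314, 498 and 318 in DMSO and 375, 450 and 331 in APH overlapped fully, with the highest value of each condition in replicate 2.

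Of the genes for loading, ORC1 had start values of 169, 180 and 152 in DMSO and 135, 135 and 127 in APH, without overlap. CDC6 had 267, 402 and 334 in DMSO and 318, 308 and 285 in APH, and the APH values lay within the range of DMSO. CDT1, the least accessible of the 10 genes, had a start peak with values of 88.2, 69.6 and 91.2 in DMSO and of 55.2 and 64.3 in APH 1 and APH 3, and no start peak was listed in APH 2. Its peak was also shorter: 380, 420 and 472 bp in DMSO against 277 and 331 bp in APH 1 and APH 3, where it covered 145 and 150 of the 250 promoter bases shown above, compared with all 250 in DMSO. Both E2F matches at -35 and -23 lay in the part that was still covered. GMNN, the inhibitor, had start values of 186, 188 and 205 in DMSO and 144, 141 and 214 in APH, where APH 3 was the highest of all 6 samples.

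**Figure D2:**
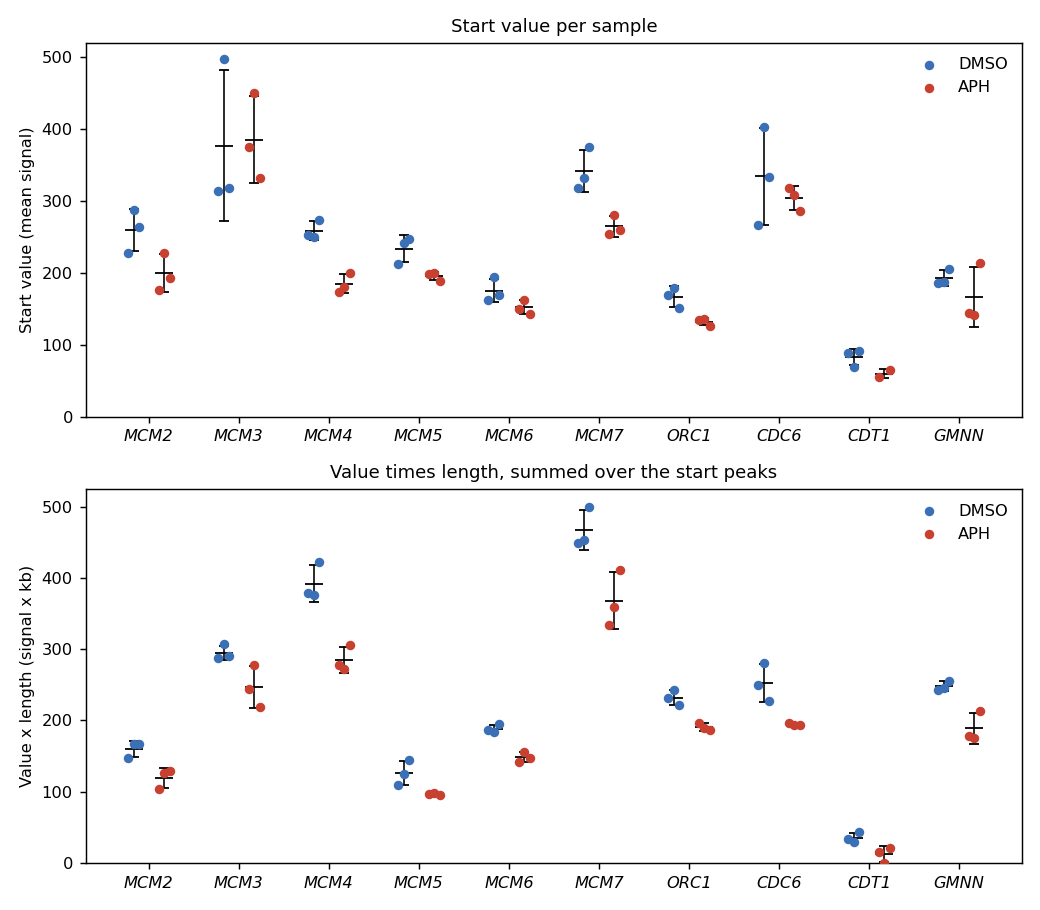
Start values (upper panel, mean signal) and start values multiplied by peak length and summed (lower panel, signal x kb) of the 10 genes in each sample, DMSO in blue and APH in red, with horizontal marks for the mean and bars for the SD (n = 3, and n = 2 for CDT1 in APH in the upper panel). In the upper panel 6 genes with 3 points in each group and CDT1, with 2 in APH, have all APH points below all DMSO points, and MCM3, CDC6 and GMNN overlap; in the lower panel all 10 genes have the APH points below.

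In limma on log2(value + 1), fitted over the 15279 genes and adjusted by Benjamini-Hochberg over all of them, the difference APH minus DMSO was -0.48 (SE 0.11, adjusted p = 0.051) for MCM4, -0.38 (SE 0.13, adjusted p = 0.072) for MCM2 and -0.37 (SE 0.11, adjusted p = 0.063) for MCM7. It was -0.33 (SE 0.11, adjusted p = 0.072) for ORC1, -0.25 (SE 0.11, adjusted p = 0.11) for MCM5, -0.24 (SE 0.15, adjusted p = 0.25) for GMNN and -0.20 (SE 0.11, adjusted p = 0.20) for MCM6. For CDC6 it was -0.12 (SE 0.15, adjusted p = 0.54) and for MCM3 0.06 (SE 0.19, adjusted p = 0.83). CDT1 was not among the genes tested, as it had no value in APH 2. In a fit without that filter, where a missing value was set to the lowest peak value of its sample, its difference was -1.09 (SE 0.47, adjusted p = 0.15), a size that depends on the value filled in. In that fit 6 of the 10 genes were lower at an unadjusted p under 0.05, against 31.2% of all, and 7 had all APH samples below all DMSO samples, against 34.7%. None of the 9 genes passed an adjusted p of 0.05, and none of the 15279 did (0% lower and 0% higher). With same-numbered samples as blocks, which the labels do not establish, 5 of the 9 were lower at that p, beside 7418 of all 15279 genes.

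At an unadjusted p under 0.05, 5 of the 9 genes (MCM2, MCM4, MCM5, MCM7 and ORC1) were lower in APH and none was higher, against 37.6% of all tested genes lower and 0.674% higher. All APH samples lay below all DMSO samples for 6 of the 9 genes, against 39.5% of all genes, and above them for none, against 1.07%. The median difference was -0.25 over the 9 genes and -0.25 over all genes, with quartiles of -0.36 and -0.13 for all genes. A lower start value in APH was thus shared with start peaks in general. The difference between these shares was not tested, and nothing particular to the licensing genes is read from it. Leaving out DMSO 3 or APH 1 lowered the count of 5 to 3 in each case, while the share of all genes went from 37.6% to 24.9% and 19.8%.

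**Figure D3:**
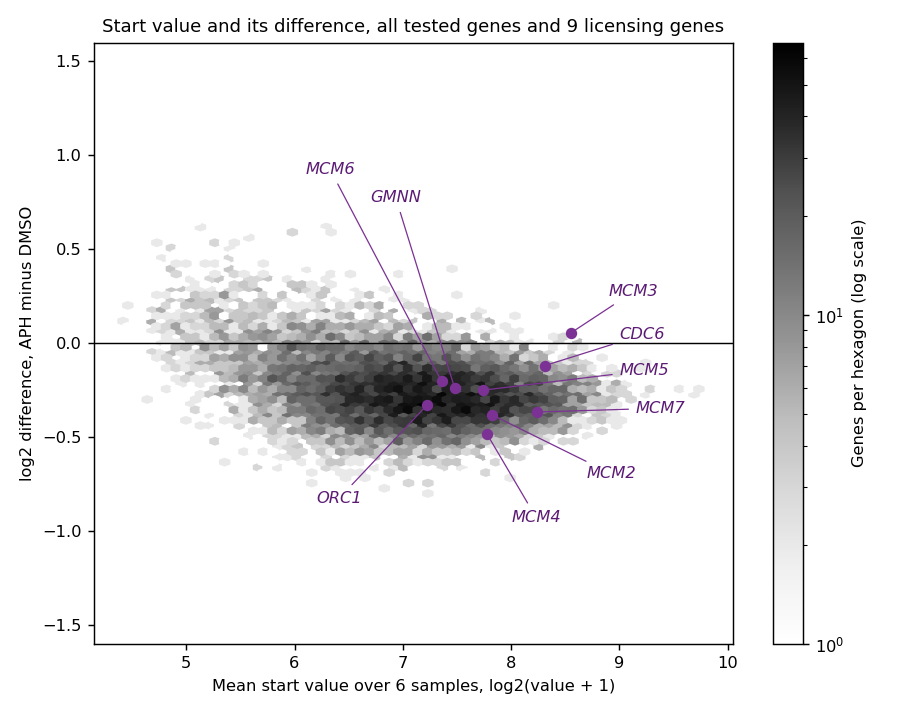
Mean start value over the 6 samples on the log2(value + 1) scale (horizontal) and the log2 difference APH minus DMSO (vertical) for the 15279 tested genes, in grey hexagons shaded by the number of genes on a log scale, and for 9 licensing genes, in purple. The licensing genes lie within the cloud of all genes, most of them near the median difference of -0.25, with MCM4 at its lower side and MCM3 at its upper side.

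When the values of each sample were centred on the median of all genes, which removes the common shift of -0.25, the 9 licensing genes lay between -0.22 for MCM4 and 0.32 for MCM3, with a median of 0.01. MCM4 was then the 1 gene of the 9 with all APH samples below all DMSO samples, against 6.64% of all genes, and the 1 gene lower at an unadjusted p under 0.05, against 2.94%. Its adjusted p by limma was 0.51, and no licensing gene lay above in all APH samples, against 8.82%. After quantile normalization none of the 9 was lower at an unadjusted p, against 3.68%, and none lay below in all APH samples, against 7.45%, or above, against 7.76%. MCM3 was then higher at an unadjusted p under 0.05 (0.34, adjusted p = 0.48), as were 4.96% of all genes. MCM5, MCM6, GMNN and CDC6 changed sign on this scale. MCM3 had the highest difference of the 9 genes before centring, after it and after quantile normalization, and without DMSO 1, DMSO 3 or APH 2 its difference before centring was between -0.06 and -0.05.

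The start value is a mean over the peak, so it also depends on where the peak ends. At MCM3 the start peaks covered 918, 616 and 911 bp in DMSO and 651, 617 and 662 bp in APH, and the shortest of the DMSO samples, replicate 2, was the one with the value of 498. Multiplying each value by the peak length gave 288, 307 and 290 signal x kb in DMSO and 244, 277 and 219 in APH. The coefficient of variation of MCM3 in DMSO was 27.9% for the value and 3.45% for the product. In DMSO the product also had the lower coefficient at MCM2, MCM6, MCM7, ORC1, CDC6 and GMNN. It had the higher one at MCM4 (5.10% for the value, 6.66% for the product), MCM5 (7.97% and 13.7%) and CDT1. In APH the product had the higher coefficient at MCM7 (5.35% and 10.7%) and the lower one at the other genes with a start value in all 3 samples. At CDC6, where DMSO 1 had an added peak of low value downstream of the start, the product was 250, 280 and 227 in DMSO and 197, 194 and 194 in APH. At GMNN it was 242, 246 and 256 in DMSO and 179, 175 and 214 in APH, the start peaks covering 1303, 1311 and 1246 bp in DMSO and 1237 (in 2 peaks), 1242 and 1000 bp in APH.

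By this product all 10 genes had every APH sample below every DMSO sample. The mean was lower by 27.2% at MCM4, 25.1% at MCM2, 23.7% at GMNN, 23.4% at MCM5, 22.8% at CDC6, 21.2% at MCM6, 21.2% at MCM7, 17.6% at ORC1 and 16.2% at MCM3. CDT1 had 33.5, 29.2 and 43.0 signal x kb in DMSO and 15.3, 0 and 21.3 in APH, lower by 65.4% with the missing peak counted as 0. Of the 9 genes tested by limma, 9 were lower at an unadjusted p under 0.05, against 44.6% of all genes, and 9 had no overlap, against 44.8%. At an adjusted p of 0.05, 7 fell, against 23.7% of all genes: MCM4 (-0.46, adjusted p = 0.024), GMNN (-0.39, adjusted p = 0.032), CDC6 (-0.37, adjusted p = 0.034), MCM6 (-0.34, adjusted p = 0.035), MCM7 (-0.35, adjusted p = 0.036), ORC1 (-0.28, adjusted p = 0.043) and MCM2 (-0.42, adjusted p = 0.043). MCM5 and MCM3 had adjusted p-values of 0.069 and 0.078. On this scale 3628 of the 15279 genes fell and 25 rose, the median difference was -0.31 over all genes and -0.37 over the 9 genes, and the 9 genes spanned -0.46 to -0.26.

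Centred on the median of all genes, the products of the 9 genes differed by -0.12 to 0.07, with a median of -0.03 against 0.02 for all genes. None was lower at an unadjusted p under 0.05, against 2.70% of all genes, 1 (MCM4) had all APH samples below all DMSO samples, against 5.26%, and none had them above, against 9.31%. This centring of the product was chosen after the data were seen.

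The 19 other genes of the pathway (ORC2 to ORC6, LRWD1, KAT7, KMT5A, MCMBP, MCM8, MCM9, DTL, DDB1, CUL4A, SKP2, PCNA, CDK2, CCNE1 and CCNA2) all had start peaks in every sample. By the start value, 18 of 19 differences were negative, 10 were lower at an unadjusted p under 0.05, 12 had all APH samples below all DMSO samples, none passed the adjusted p, and the median was -0.29. Over all 15279 genes 13732 differences were negative, 37.6% were lower at that p and 39.5% had all APH samples below. The difference between these shares was not tested, and nothing particular to the list is read from it. After centring 1 of the 19 (KMT5A) was lower at an unadjusted p under 0.05, against 2.94% of all genes. At that p 1 (ORC5) was higher, as were 912 of all 15279 genes. None had all APH samples below, against 6.64%, and the median was -0.03. After quantile normalization 1 (KMT5A) was lower, against 3.68%, and 2 (KMT5A and CUL4A) had all APH samples below, against 7.45%. For the centred product none was lower, against 2.70%, 1 (MCM8) had all APH samples below, against 5.26%, and 2 (MCMBP and CCNA2) had them above, against 9.31%. The largest difference was that of CDK2, the kinase that drives S phase and blocks relicensing, with values of 139, 119 and 125 in DMSO and 80.4, 69.5 and 110 in APH (-0.58, SE 0.17, adjusted p = 0.057; -0.32 after centring). KMT5A, a histone H4 methyltransferase that is degraded by the same ligase as CDT1, had 314, 325 and 289 in DMSO and 228, 211 and 201 in APH (-0.53, SE 0.11, adjusted p = 0.051; -0.27 after centring). ORC5, a subunit of the origin recognition complex, was the 1 gene with a positive difference, with 146, 148 and 239 in DMSO and 176, 179 and 204 in APH (0.11, SE 0.17, adjusted p = 0.64). This value rested on single samples, being -0.013 without DMSO 1, -0.0039 without DMSO 2 and 0.34 without DMSO 3, and it was -0.23 with a start window of 2 kb and 0.37 after centring (adjusted p = 0.55 by limma). By the product of value and length all 19 differences were negative, from -0.56 to -0.22, so that the direction at ORC5 turned, and 7 passed the adjusted p. On that scale 13817 of the 15279 genes were negative and 23.7% were lower at the adjusted p. PCNA, the sliding clamp to which CDT1 is bound for degradation, had the highest mean start value in DMSO (400.4 ± 44.7, SD, n = 3), with samples from 350 to 436 that lay within the range of MCM3, and CCNE1, the cyclin partner of CDK2, the lowest (86.4 ± 27.6).

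**Figure D4:**
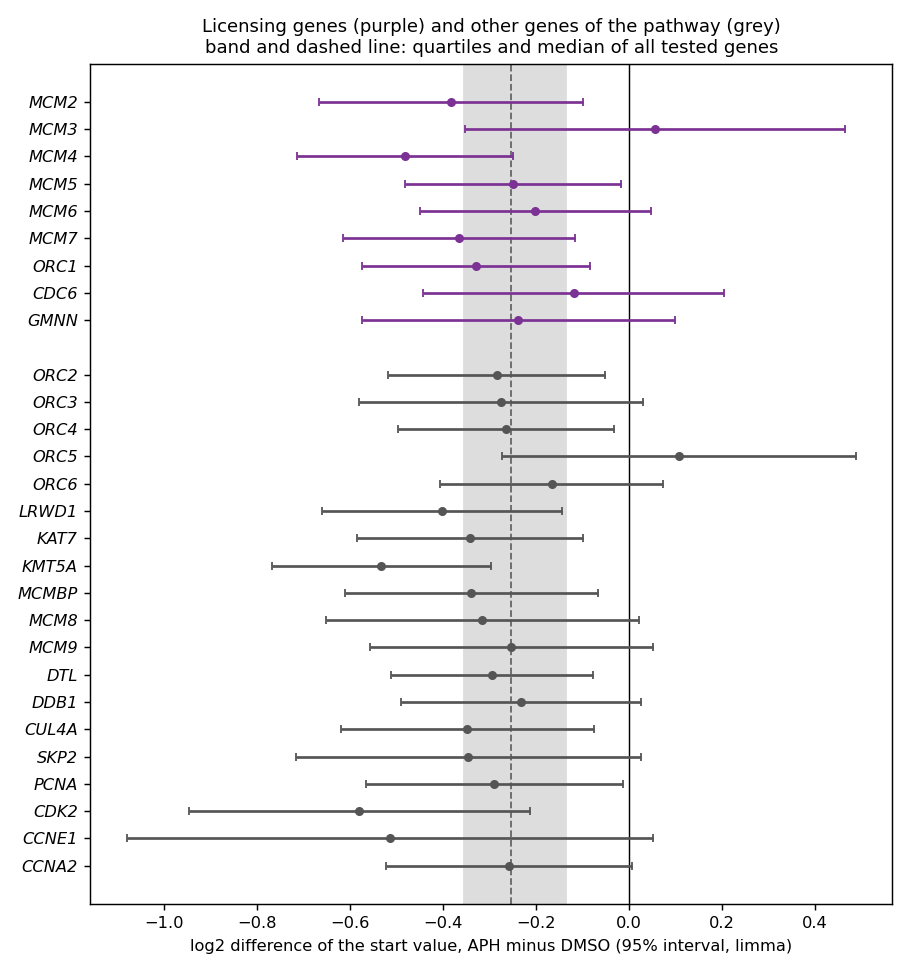
Difference of the start value, APH minus DMSO, on the log2 scale (horizontal) with its 95% interval from limma for 9 licensing genes (purple) and the 19 other genes of the pathway (grey); the grey band and dashed line are the quartiles and the median of all 15279 tested genes. Most points lie left of 0 and near the dashed line at -0.25, from CDK2 at -0.58 to ORC5 at 0.11.

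Body peaks were few. They numbered 7, 8 and 8 over the 10 genes in the DMSO samples and 9, 7 and 7 in the APH samples, a mean of 7.67 in each condition, and MCM6, ORC1 and GMNN had none in any sample. For no gene did the number of body peaks separate the conditions, against 0.279% of 19010 genes with fewer in every APH sample and 2.80% with more. The smallest exact permutation p for a gene was 0.4 (two-sided, 3 against 3 samples, where 0.1 is the smallest possible), at MCM2, whose peak 9.8 kb from the start was listed in DMSO 2 (43.1) and DMSO 3 (27.0) only. A peak of MCM4 at 6.7 kb was listed in 2 samples of each condition, with values of 34.7 to 47.2.

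In 4 body regions a peak was present in all 6 samples. At the 3′ end of MCM3, 20.8 kb from the start, the values were 47.9, 62.2 and 48.0 in DMSO and 40.9, 46.2 and 29.9 in APH, without overlap (-0.44, SE 0.23, adjusted p = 0.44 by limma over 50150 regions). In MCM5, 30.9 kb from the start, they were 68.4, 80.1 and 74.8 in DMSO and 44.9, 58.3 and 57.9 in APH, also without overlap (-0.47, SE 0.20, adjusted p = 0.35). A stronger peak of MCM5 at 46.3 kb had 144, 248 and 131 in DMSO and 141, 141 and 119 in APH, where DMSO 2 stood apart and the other 5 samples overlapped. In CDC6, 3.0 kb from the start, the values were 102, 107 and 88.6 in DMSO and 92.1, 79.9 and 78.7 in APH, with overlap. The MCM5 gene spans 54892 bp in RefSeq and 25298 bp in GENCODE, and all of its body peaks lie in the part that only RefSeq counts to the gene.

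Taking start and body regions together, 15 regions of the licensing genes had a peak in every sample. At an unadjusted p under 0.05, 7 were lower, against 10.1% of the 50150 regions, and 10 had every APH sample below, against 14.4%. None was higher at that p, against 2.46%, and none had every APH sample above, against 4.21%. The regions had a median difference of -0.33, against -0.06 over all regions. The 50150 regions include those far from any gene start, while 11 of these 15 are start regions, so this background is not that of starts. Centred on the median of all regions, 8 were lower at an unadjusted p, against 9.82% of all regions, and 10 had every APH sample below, against 11.4%. After quantile normalization 3 were lower at that p, against 4.6%, and 3 had every APH sample below, against 7.51%. The start region of MCM3 was then higher at an unadjusted p under 0.05 (0.30, adjusted p = 0.37 by limma), as were 2963 of all 50150 regions. The median of the 15 regions on this scale was -0.15. Without APH 1 the count of 7 fell to 1, while the share of all regions was 4.12%. None passed the adjusted p. The strongest was the downstream of the 2 start regions of MCM4 (-0.53, SE 0.13, adjusted p = 0.29), and the one on the side of PRKDC was -0.40 (SE 0.14, adjusted p = 0.30).

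**Figure D5:**
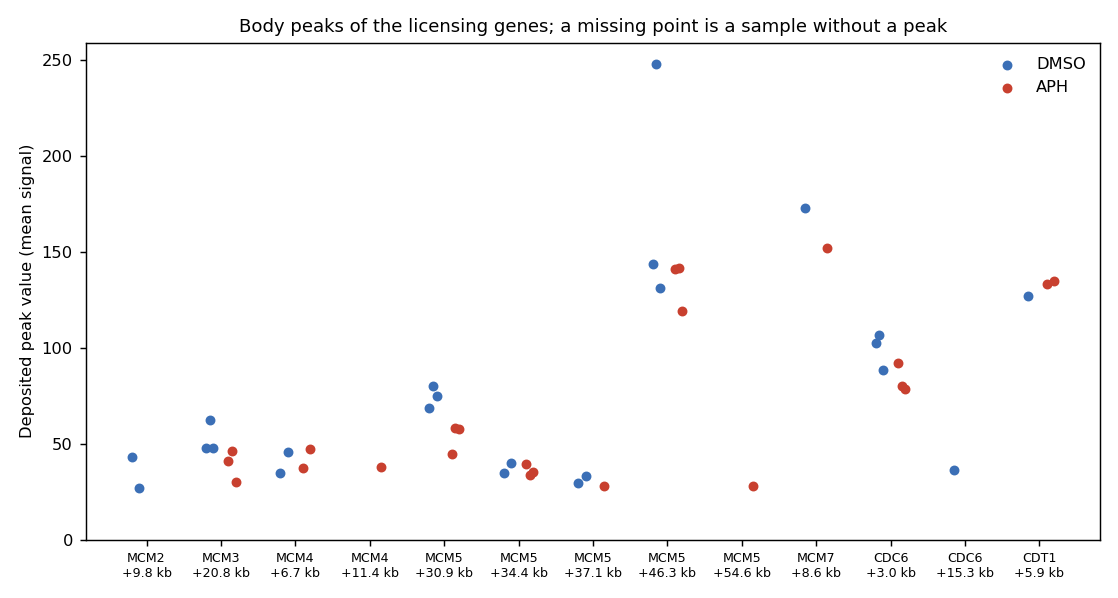
Deposited values (vertical, mean signal) of the body peaks of the licensing genes, named on the horizontal axis by gene and distance from the nearest start, DMSO in blue and APH in red. A missing point is a sample in which no peak was counted to the gene. At MCM7 the samples without a point had a wider peak there, which the rule of 1 kb left out. Of the regions, 4 have all 6 points, and the values are mostly under 150, with MCM5 in DMSO 2 at 248.

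Past the 3′ end of CDT1, 5.9 kb from its start, a peak was listed in DMSO 2 (127), APH 1 (133) and APH 2 (135), which were the 3 samples with the most peaks in all, and not in the other 3. Past the 3′ end of MCM7 a peak was counted in DMSO 3 (173) and APH 3 (152) alone because the peak was split there. In the other 4 samples a single wider peak, with values of 197 to 241, had its midpoint 1018 to 1033 bp past the gene and was left out by the rule of 1 kb.

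In the ratio of start to body value within a sample, a factor that multiplies all values of that sample cancels, although the ends of the peaks still enter. It could be formed in all samples for 3 genes. For MCM3 the log2 ratio was 2.71, 3.00 and 2.73 in DMSO and 3.20, 3.28 and 3.47 in APH, higher in each APH sample, by 0.50 on average (two-sided exact permutation p = 0.1, the smallest possible with 3 against 3). For MCM5 it was 1.23, 0.68 and 1.32 in DMSO and 1.38, 0.98 and 1.11 in APH, a difference of 0.08 (exact permutation p = 0.8), and for CDC6 1.90, 1.91 and 1.91 against 1.79, 1.95 and 1.86, a difference of -0.04 (exact permutation p = 0.4). The conditions overlapped for both. Adjusted by Benjamini-Hochberg over the 3 genes, the exact permutation p was 0.3 for MCM3, 0.8 for MCM5 and 0.6 for CDC6. The ratio was not formed for all genes, so no share of them stands beside it.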

How the data were processed

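For each of the 6 RKO samples, 1 deposited list of ATAC-seq peaks was used. The authors aligned reads with BWA 0.7.12, removed duplicates, called peaks in each sample with MACS2 2.1.0 and took the build hg38, per the submitters' processing notes, and the paper's methods add the removal of blacklisted peaks. The authors deposited for each peak a mean signal, the coverage by alignments extended to 200 bp in 32-nt bins; for peaks and values under 1000, the value times the number of bins was whole, within the rounding of the deposited digits, for 99.995% or more of peaks, so no fractional scaling to library size was applied. The sources used here give neither the depth nor whether reads were first reduced to equal numbers. The paper speaks of independent experiments, but nothing ties replicate numbers across conditions.

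Starts came from the RefSeq promoter table (GRCh38.p14) for 27302 genes, and otherwise from the RefSeq gene end with the strand from GENCODE, as for MCM4 and MCM5. All 10 symbols matched. MCM7 has 3 starts and GMNN 2. Gene bodies (GRCh38.p14) were chr3:127598411-127622436 for MCM2, chr6:52264015-52284742 for MCM3, chr22:35400140-35455031 for MCM5, chr2:135839626-135876443 for MCM6, chr7:100092728-100101397 for MCM7, chr1:52372829-52409503 for ORC1, chr17:40287879-40304657 for CDC6, chr16:88803789-88809258 for CDT1 and chr6:24774937-24786099 for GMNN. MCM4 is on chromosome 8.

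Start values and regions (peaks merged at 1 bp overlap or more) present in all samples were tested with limma 3.58.1 (R 4.3.3) with an intensity trend on log2(value + 1), adjusted by Benjamini-Hochberg, so a fold change is on that scale and is understated at low values. Numbers of peaks and ratios were tested by a two-sided exact permutation. These fits were first tested on simulated data of known changes. All 10 genes are named, the 19 genes of the comparison list are given by counts, with values for those at the ends of its range, and neighbours are named where they share a peak. KMT5A, for its small p, and PCNA and CCNE1, for their levels, were given values after these were seen. The members and lists were chosen with earlier results of these data known. Python 3.11.15 with pandas 2.3.3, numpy 2.4.6, scipy 1.17.1 and matplotlib 3.10.9 was used.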

Additional observations from a re-analysis of the deposited data

How the results depend on the processing

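By the start value, 0 genes passed the adjusted p in limma (5743 lower and 103 higher at an unadjusted p under 0.05). With a replicate block 7418 genes were lower and 134 higher, without a filter 10 and 7, with a stricter peak threshold 1038 and 6, with the product of value and length 3628 and 25, and with that product centred 0 and 2. Leaving out 1 sample gave 0 to 2264 lower and 0 to 38 higher, the highest of both without APH 3. Of the 9 licensing genes, 5 were lower at an unadjusted p. The number was 1 after centring, 0 after quantile normalization, 9 for the product, 0 for the centred product and 3 to 5 with a sample left out. With a sample left out the share of all genes was 19.8% to 39.4%. Those without overlap went from 6 to 1 after centring, 0 after quantile normalization and 1 for the centred product. Among regions, 0 passed the adjusted p (5062 lower and 1235 higher at an unadjusted p under 0.05), 1 was lower after centring, 5583 were lower and 1021 higher with the block, and 0 to 3 were lower with a sample left out. Of the regions of the licensing genes, 7 were lower at an unadjusted p, against 10.1% of all regions, and 3 after quantile normalization, against 4.6%. With the block 13 were lower, against 21.1%, and with a sample left out 1 to 7, against 4.12% to 10.0%. Those without overlap went from 10 to 3 after quantile normalization, against 14.4% and 7.51% of all regions. The difference of 0 in the mean number of body peaks became 2.33 within 5 kb of the genes.

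The sign of some differences turned. After centring and quantile normalization the start values gave 0.058 and 0.067 for MCM6, 0.022 and 0.049 for GMNN, 0.14 and 0.16 for CDC6 and 0.0105 and 0.026 for MCM5, and the start region of CDC6 gave 0.043 after quantile normalization. MCM6 gave 0.047 both by the highest start peak and within 500 bp. MCM3 gave -0.043 by the highest peak and -0.26 by the product, and -0.061 to 0.27 with a sample left out, below 0 without DMSO 1, DMSO 3 or APH 2, by start value and by region alike. CDC6 gave -0.27 to 0.024 with a sample left out, above 0 without DMSO 2. ORC1 gave 0.056 by the centred product. The log2 ratio of start to body gave 0.0503 for CDC6 by the highest peaks, and -0.12 to 0.20 for MCM5 with a sample left out, below 0 without DMSO 2 or APH 1. GMNN and MCM4 passed the adjusted p of limma without APH 3 (-0.43, adjusted p = 0.043, and -0.54, adjusted p = 0.034), and MCM4 with the stricter threshold (adjusted p = 0.047). At that p 2264 of 15279 genes were lower without APH 3, and 1038 of 13536 with the stricter threshold. The cause was not tested.

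Deviations of samples with the same replicate number correlated at -0.08, 0.59 and 0.60 for start values, and DMSO 1 went best with APH 3 (0.30). Deviations from a mean of 3 samples depend on one another, so these correlations cannot settle whether the numbers pair the samples. With the block, 5 of the 9 licensing genes (MCM2, MCM4, MCM5, MCM7 and ORC1) passed the adjusted p, beside 7418 of all 15279 genes. So did 15 of the 19 other genes of the pathway, CDK2 (adjusted p = 0.0068) and KMT5A (adjusted p = 0.0045) among them, and 7 of the 15 regions of the licensing genes, beside 5583 of all 50150. Without APH 3, 4 of the 19 were lower at the adjusted p, beside 2264 of all 15279 genes. Depth is unknown and 3 samples per condition limit the precision.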
